A study of Homo sapiens with 8 samples.

Results

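The genes described here form the innate antiviral module of a human cell: the proteins that sense foreign or misplaced nucleic acids, the proteins that relay the alarm, and the interferon-stimulated genes that are switched on as a result. The members were 31 genes chosen by symbol, with the brightest probe set taken for each gene. The array table held a probe set for 30 of them, 1 per gene, among 21448 probe sets tested. STAT2 had no probe set under its symbol and was not analysed here, and DDX58 was listed under its current symbol, RIGI.

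The measurements came from H1299 cells, an established human line of non-small cell lung cancer, hybridised to 8 Clariom S arrays. In 1 experiment cells were treated with gallic acid (GA), a plant phenol, and in the other with 5-azacytidine (5azaC), a cytidine analog that blocks DNA methyltransferases. Both treatments lasted 120 h, and each had its own untreated controls of the same passage (Ctrl_GA and Ctrl_5azaC), so that the 4 groups held 2 biological replicates each. The labels give the dose of both compounds as 10 mM, whereas the methods of the study give it as 10 μM. No source used here says whether the controls received vehicle. All groups came from the same line, and the labels name no transgene or knockdown.

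In an uninfected cell most of these genes are quiet. RNA in the cytosol that looks viral is bound by RIG-I (DDX58) or MDA5 (IFIH1), which signal through the mitochondrial adaptor MAVS to the interferon genes, and secreted interferon then acts through a receptor and a STAT and IRF complex on the promoters of the stimulated genes. DNA methyltransferase inhibitors are known to switch this route on in some tumour cells by releasing transcripts of silenced endogenous retroviruses, a response called viral mimicry. The comparison addressed here is whether the module moved after GA or 5azaC.

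The interferon complex binds a short element known as the interferon-stimulated response element, whose core has the letters GAAA, any 2 bases, and GAAA again. This core was searched on both strands, overlapping matches included, in the 250 bases upstream of the RefSeq transcript start. Of the 31 members 25 had an entry in the RefSeq promoter table (GRCh38.p14). IRF7, USP18, IFIT2, OAS2, OASL and MX2 had none. The core occurred in 15 of the 25 windows (60%), against 377 of 14250 windows of all genes named on the array (2.65%). A match is a run of letters and no evidence of binding. The member windows were also poorer in CpG, the dinucleotide that DNA methyltransferases modify, with a median of 5 CpG per window against 18 over all windows.

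The windows of 5 members are printed as examples: IFIT1, the member called after 5azaC, IFIT3 of the same gene cluster, IFI6 and ISG15, both classic targets of interferon, and MAVS, a member with a negative difference after both treatments and no match. Capitals mark the core on either strand. The IFIT1 window lies at chr10:89392373-89392622 on the plus strand with 4 CpG, and that of IFIT3 at chr10:89327747-89327996 on the plus strand with 5 CpG. The IFI6 window lies at chr1:27672193-27672442 on the minus strand with 6 CpG, that of ISG15 at chr1:1013247-1013496 on the plus strand with 17 CpG, and that of MAVS at chr20:3846584-3846833 on the plus strand with 28 CpG.
IFIT1: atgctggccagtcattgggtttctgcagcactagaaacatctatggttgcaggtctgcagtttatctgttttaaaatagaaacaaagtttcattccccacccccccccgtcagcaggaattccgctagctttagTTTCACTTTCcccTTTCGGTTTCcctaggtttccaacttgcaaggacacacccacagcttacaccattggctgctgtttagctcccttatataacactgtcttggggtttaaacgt
IFIT3: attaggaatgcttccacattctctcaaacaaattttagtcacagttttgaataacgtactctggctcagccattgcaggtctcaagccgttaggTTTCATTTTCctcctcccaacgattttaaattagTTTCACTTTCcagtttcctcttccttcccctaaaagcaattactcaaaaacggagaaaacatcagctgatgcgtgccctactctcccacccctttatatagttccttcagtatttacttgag
IFI6: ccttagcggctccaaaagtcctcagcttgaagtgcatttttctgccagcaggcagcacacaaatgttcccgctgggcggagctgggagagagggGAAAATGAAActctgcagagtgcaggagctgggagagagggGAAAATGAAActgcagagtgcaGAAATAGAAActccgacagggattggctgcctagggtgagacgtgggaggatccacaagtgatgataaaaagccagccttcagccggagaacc
ISG15: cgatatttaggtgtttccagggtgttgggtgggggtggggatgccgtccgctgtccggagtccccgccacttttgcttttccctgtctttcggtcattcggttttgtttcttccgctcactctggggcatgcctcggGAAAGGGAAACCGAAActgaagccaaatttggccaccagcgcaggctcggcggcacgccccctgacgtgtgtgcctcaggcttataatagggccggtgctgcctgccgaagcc
MAVS: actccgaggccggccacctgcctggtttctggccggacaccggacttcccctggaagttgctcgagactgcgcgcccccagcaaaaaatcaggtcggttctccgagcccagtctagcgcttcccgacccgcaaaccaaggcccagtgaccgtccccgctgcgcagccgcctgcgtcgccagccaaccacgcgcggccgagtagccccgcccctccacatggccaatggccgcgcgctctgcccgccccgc
The IFIT1 and IFIT3 windows each held 2 matches and the IFI6 window 3. ISG15 held 2 matches that overlap, and MAVS none.

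The signals were log2 values, and each array was judged against its own 612 negative-control probe sets. Their median lay between 3.40 and 3.58, and their 95th percentile, used here as the background level, between 6.31 and 7.23. Between 39.9% and 46.1% of all probe sets lay above it on an array. The median of all probe sets ran from 5.60 to 5.63 in the GA experiment and from 5.85 to 5.87 in the 5azaC experiment, 4 arrays each. The cells carried the defining marker of a mesenchymal-like carcinoma line, with VIM (vimentin) at 15.17 to 15.81. The epithelial keratins KRT8 and KRT18 were also above background on all 8 arrays, whereas KRT19, EPCAM and CDH1 were below it. Of the markers of other cells, all 6 alveolar and all 6 fibroblast or endothelial genes measured lay below background on every array. Of 7 immune genes measured, 6 did, the exception being CD68, a lysosomal protein, at 12.10 to 12.36. Of 3 plasmacytoid dendritic cell genes, 2 did, and GZMB was above background on 1 array. In bulk RNA, fewer cells expressing a gene and less RNA per cell cannot be told apart.

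Many members gave no signal above background, as did many probe sets overall. Of the 30 members measured, 18 lay below background on all 8 arrays (60%, against 51.9% of all probe sets), with signals between 2.10 and 6.83. In 8 members the signal was above background on all 8 arrays (26.7%, against 37.2% of all probe sets): DDX58, IFIH1, MAVS, HERC5, OAS3, IFITM1, IFITM3 and IFI6. This count depends on the percentile, and was 2 at the 99th percentile of the negative controls and 0 at their maximum. IFIT1 and IFIT3 were above it in both 5azaC samples, IFIT3 also on 1 array of the controls for 5azaC, and IRF9 and TLR3 on 1 array each. A signal below background is not proof that a gene was off. Of the 30 members, 20 still exceeded the median of the negative controls on all 8 arrays, whereas OAS1, OAS2, BST2 and IFI44L were below that median on all 8.

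**Figure D1:**
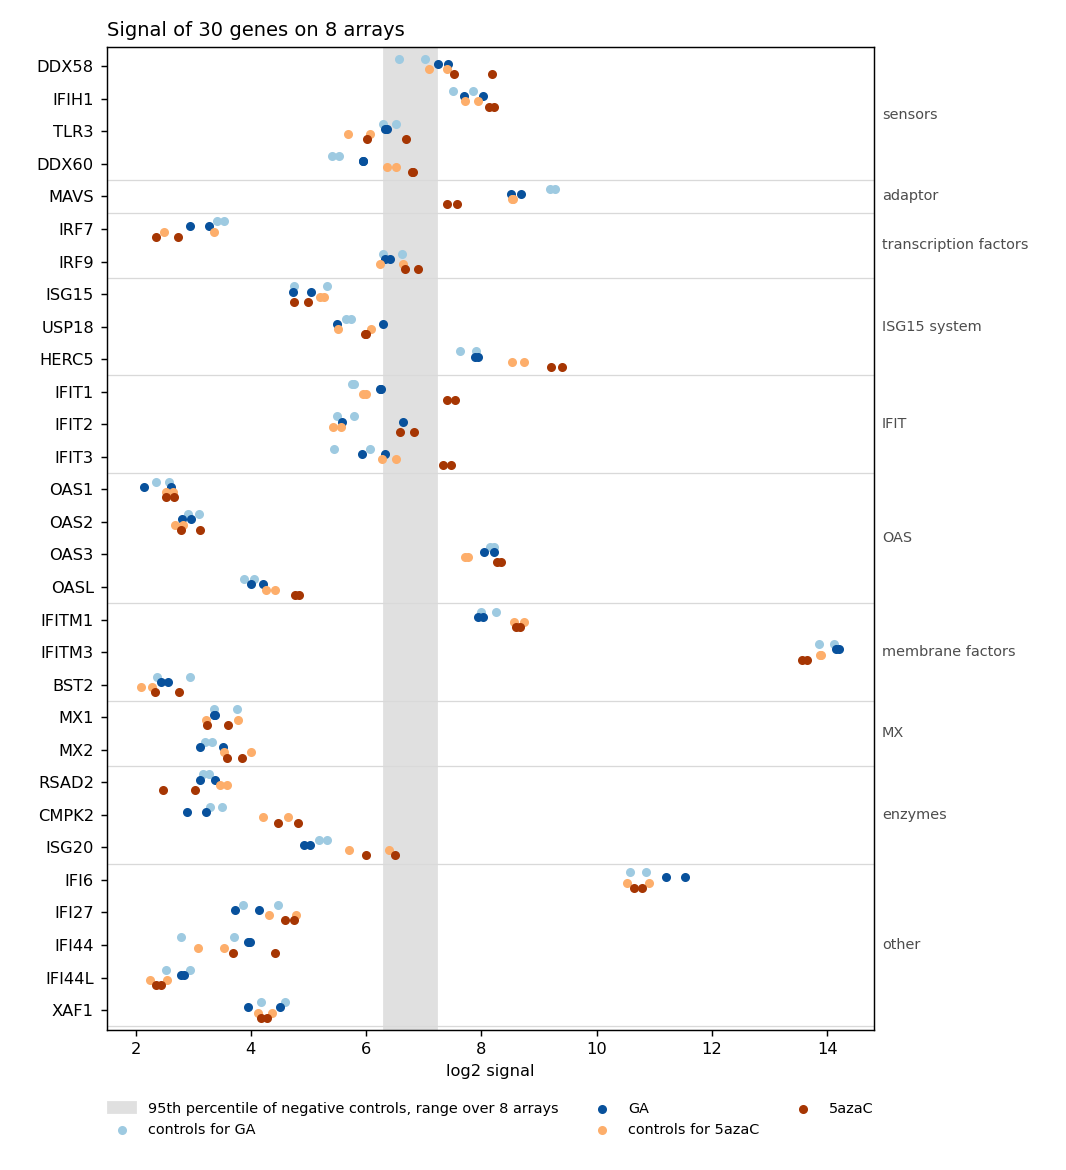
Log2 signal (horizontal axis) of 30 interferon-stimulated genes and sensors on each of the 8 arrays, with points coloured by group and the background range of the negative controls shown. Only 8 genes stay above background on all 8 arrays, IFITM3 among them at 13.57 to 14.21.

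Among the sensors, RIG-I and MDA5 were both above the 95th percentile of the negative controls without treatment. DDX58, which encodes RIG-I, read 6.57 and 7.03 in the controls for GA and 7.10 and 7.41 in the controls for 5azaC. It read 7.43 and 7.25 after GA and 7.52 and 8.18 after 5azaC, so treated and control arrays did not overlap in either experiment. On the log2 scale the change was 0.54 ± 0.24 (SE) after GA (adjusted p = 0.334) and 0.60 ± 0.24 after 5azaC (adjusted p = 0.219), neither past the threshold of 0.05. These p-values come from limma with Benjamini-Hochberg adjustment over all 21448 probe sets, and n = 2 per group throughout.

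IFIH1, which encodes MDA5, the sensor of long duplex RNA, read 7.50 and 7.85 in its controls against 7.70 and 8.02 after GA, and 7.72 and 7.94 against 8.14 and 8.22 after 5azaC. The fold changes of 0.19 (95% CI −0.28 to 0.66) and 0.35 (−0.13 to 0.82) included 0, and only the 5azaC arrays did not overlap with their controls. TLR3, the endosomal sensor of duplex RNA, was above background only on 1 control array. DDX60, a helicase described as a cofactor of RIG-I, stayed below background on all arrays, so no change is read from its differences of 0.48 ± 0.20 after GA (unadjusted p = 0.0479, adjusted p = 0.309) and 0.37 ± 0.20 after 5azaC (adjusted p = 0.364).

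MAVS, the adaptor through which both RNA sensors signal, had the most negative change among the members above background. It read 9.20 and 9.28 in the controls for GA and 8.51 and 8.68 after GA. It read 8.53 and 8.55 in the controls for 5azaC and 7.40 and 7.58 after 5azaC. All treated arrays were lower than their own controls. After GA the log2 fold change of MAVS was −0.64 ± 0.20 (adjusted p = 0.196), and after 5azaC −1.05 ± 0.20 (95% CI −1.52 to −0.57, adjusted p = 0.0552). The second value lay just outside the threshold, and over 14 alternative settings its adjusted p ran from 0.00964 to 0.532 and passed in 6. Between the untreated controls MAVS also differed, by −0.70 on the log2 scale (controls for 5azaC minus controls for GA, adjusted p = 0.0339).

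The 2 transcription factors of the list that were measured gave little signal. IRF7, the factor that amplifies interferon alpha production, was below background on all arrays, and IRF9, a DNA-binding subunit of the interferon-activated complex, was above it on 1 control array only.

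The system of ISG15, a ubiquitin-like protein that is attached to other proteins, was represented by the ligase HERC5 alone. ISG15 itself, a sensitive readout of interferon, lay between 4.73 and 5.33 on all 8 arrays, below background, and so did USP18, which removes ISG15 and dampens receptor signalling. HERC5 read 7.62 and 7.91 in the controls for GA against 7.89 and 7.94 after GA, and 8.53 and 8.74 in the controls for 5azaC against 9.21 and 9.40 after 5azaC. The 5azaC arrays stood above their controls and the GA arrays overlapped with theirs. Its log2 fold change was 0.67 ± 0.21 after 5azaC (95% CI 0.19 to 1.15, adjusted p = 0.135) and 0.14 ± 0.21 after GA (adjusted p = 0.800). HERC5 differed more between the untreated controls, by 0.87 (adjusted p = 0.0196).

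The IFIT genes, whose products bind viral RNA and block its translation, held the only member called after a treatment. IFIT1 (probe set TC1000008400.hg.1) read 5.95 and 6.0 in the controls for 5azaC and 7.40 and 7.54 after 5azaC. It read 5.78 and 5.76 in the controls for GA and 6.24 and 6.25 after GA. Treated arrays were higher in both experiments, but only the 5azaC arrays were above background. The measured difference after 5azaC was 1.50 ± 0.20 on the log2 scale (95% CI 1.03 to 1.97, adjusted p = 0.0262), higher in 2 of 2 pairs. Because its controls lay below background, the 5azaC mean of IFIT1 was set against the mean background level of the control arrays, which gave 1.73-fold. This value has no interval and is not a strict minimum. Background was higher on the 5azaC arrays, at 6.998 and 7.227, than on their controls, at 6.971 and 6.402. After GA the difference was 0.47 (95% CI −0.00 to 0.94, adjusted p = 0.316), with both groups below background.

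The IFIT1 call did not hold in every fit. With the 4 arrays of the 5azaC experiment alone the adjusted p was 0.0864. Leaving out a GA pair gives this same fit for 5azaC, since a single GA pair adds nothing to the estimate of the spread. With only replicate 1 or only replicate 2 of the 5azaC experiment, the difference was 1.46 and 1.54, and 1 pair has no spread of its own. Each of these fits has fewer arrays from which to estimate the spread.

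IFIT3, the partner that stabilises IFIT1 in their complex, read 6.28 and 6.52 in the controls for 5azaC and 7.33 and 7.47 after 5azaC. It read 6.07 and 5.44 in the controls for GA and 5.93 and 6.33 after GA. The 5azaC arrays stood above their controls, while the GA arrays overlapped with their controls. The log2 fold change after 5azaC was 1.0 ± 0.28 (95% CI 0.36 to 1.65, adjusted p = 0.109), and after GA 0.38 ± 0.28 (adjusted p = 0.575). IFIT2, which binds AU-rich RNA, differed by 1.21 ± 0.25 after 5azaC (adjusted p = 0.0641), but all its values, 5.43 to 6.83, were below background and give no fold.

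**Figure D2:**
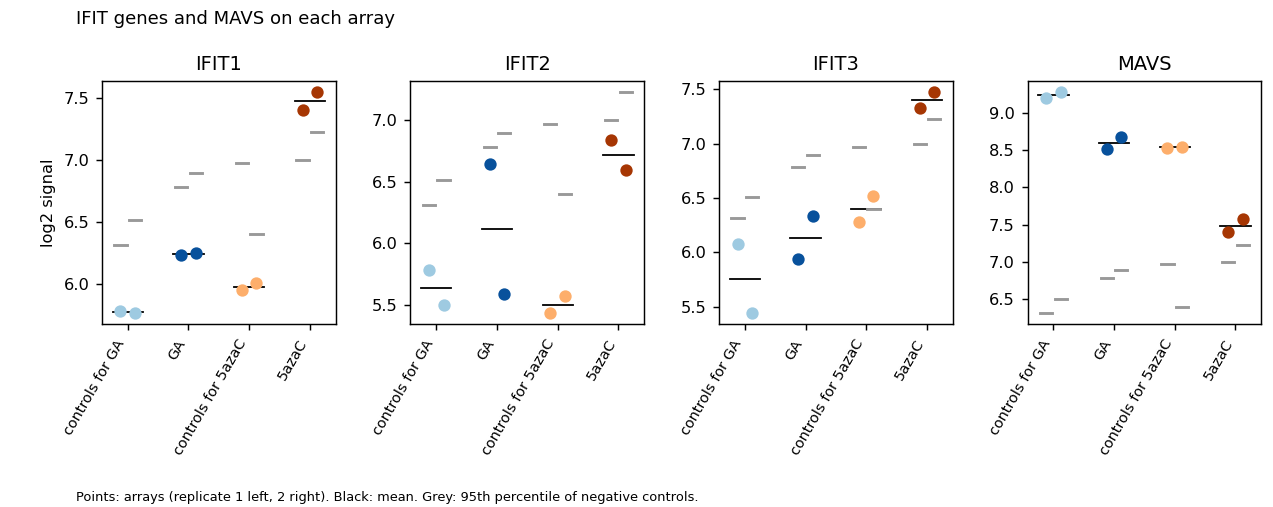
Log2 signal (vertical axis) of the IFIT genes and MAVS on each array by group, with points for arrays, black lines for group means and grey marks for the background of each array. IFIT1 at 7.40 and 7.54 lies above background only after 5azaC, IFIT3 reaches 7.33 and 7.47 there, and MAVS reads 7.40 and 7.58 there against 8.53 and 8.55 in its controls.

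The OAS genes encode enzymes that make the messenger 2′,5′-oligoadenylate, which activates RNase L. OAS1, OAS2 and OASL, a relative without the enzyme activity, were below background on all arrays. OAS3, the member that responds best to long duplex RNA, read 8.23 and 8.16 in the controls for GA, 8.22 and 8.05 after GA, 7.77 and 7.71 in the controls for 5azaC, and 8.27 and 8.34 after 5azaC. The 5azaC arrays were above their controls, and the GA arrays overlapped with theirs. The log2 fold change after 5azaC was 0.57 ± 0.20 (95% CI 0.09 to 1.04, adjusted p = 0.178), and after GA −0.05 ± 0.20 (adjusted p = 0.936).

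The membrane factors IFITM1 and IFITM3, which hinder the fusion of viruses with the cell, were above background in every group. IFITM3 read 14.12 and 13.86 in the controls for GA, 14.16 and 14.21 after GA, 13.89 and 13.88 in the controls for 5azaC, and 13.64 and 13.57 after 5azaC. Its fold changes were 0.19 (95% CI −0.29 to 0.68) and −0.28 (−0.76 to 0.21). IFITM1 read 8.26 and 8.0, then 7.95 and 8.02 after GA, and 8.73 and 8.57, then 8.67 and 8.60 after 5azaC, and in both cases the groups overlapped. The fold changes of IFITM1 were −0.14 (95% CI −0.63 to 0.35) and −0.02 (−0.51 to 0.48). The IFITM genes are close copies of each other, and whether their probe sets tell them apart was not tested. BST2, or tetherin, which holds budding virus at the cell surface, was below background on every array.

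The dynamin-like GTPases MX1 and MX2, textbook markers of interferon exposure, lay between 3.11 and 4.0 on all arrays, below background. The enzymes RSAD2 (viperin), which makes a chain-terminating nucleotide, CMPK2, its genomic neighbour, and the exonuclease ISG20 were also below background throughout. RSAD2 differed by −0.78 ± 0.24 after 5azaC (unadjusted p = 0.0121, adjusted p = 0.131) at signals of 2.48 to 3.59, from which no change is read.

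Of the remaining stimulated genes only IFI6, a mitochondrial and endoplasmic reticulum protein that protects cells from apoptosis, was above background on all arrays. IFI6 read 10.86 and 10.57 in the controls for GA and 11.21 and 11.54 after GA. It read 10.90 and 10.53 in the controls for 5azaC and 10.78 and 10.65 after 5azaC. Both GA arrays were above their controls, and the 5azaC arrays lay within the range of their controls. IFI6 differed by 0.66 ± 0.23 on the log2 scale after GA (95% CI 0.11 to 1.20, unadjusted p = 0.0242, adjusted p = 0.237) and 0.00 ± 0.23 after 5azaC (adjusted p = 0.999). IFI27, IFI44, IFI44L and XAF1 were below background. IFI44 differed by 0.72 ± 0.26 after GA (unadjusted p = 0.0261, adjusted p = 0.246) and 0.75 ± 0.26 after 5azaC (unadjusted p = 0.0227, adjusted p = 0.172), at signals of 2.79 to 4.43.

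After GA no member passed the threshold in either direction, while 0.0793% of all probe sets were called higher and 0.242% lower. At an unadjusted p under 0.05, DDX60, IFI6 and IFI44 were higher and MAVS lower (3 and 1 of 30), against 8.91% and 6.94% of all probe sets. Treated and control arrays did not overlap in 6 members that were higher and 4 that were lower, against 25.3% and 21.4% of all probe sets. Of the higher ones DDX60, IFIT1 and IFI44, and of the lower ones IRF7, CMPK2 and ISG20, were below background in both groups. The shares among the members were near or below those over all probe sets. The median log2 fold change of the 30 members was −0.01, against 0.02 over all probe sets, and 15 were positive. Both values include the 18 members below background on all arrays. By the paired test that the methods of the study name, at an unadjusted p under 0.05 with a 2-fold difference, 0 members passed, against 0.746% of all probe sets.

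After 5azaC 1 member, IFIT1, passed in the higher direction, against 0.518% of all probe sets, and 0 in the lower direction, against 0.988%. At an unadjusted p under 0.05, 7 members were higher (IFIT1, IFIT2, IFIT3, HERC5, OAS3, DDX58 and IFI44), against 10.7% of all probe sets, and 2 were lower (MAVS and RSAD2), against 9.61%. Of these 9, the readings of IFIT2, IFI44 and RSAD2 were below background. Groups did not overlap in 12 members that were higher and 4 that were lower, against 28.1% and 22.2%. Among the higher ones DDX60, IRF9, IFIT2, OASL, BST2 and IFI44 were below background in both groups, from which no change is read. Among the lower ones ISG15 and RSAD2 were. The median log2 fold change was 0.20, against 0.05 over all probe sets, and 20 of 30 were positive (66.7%, against 55.1%). Both values include the 18 members below background on all arrays. By the paired test of the methods with a 2-fold difference, IFIT1, IFIT3 and MAVS passed (3 of 30, against 1.29%), and none of them did after adjustment (adjusted p = 0.519 to 0.532).

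**Figure D3:**
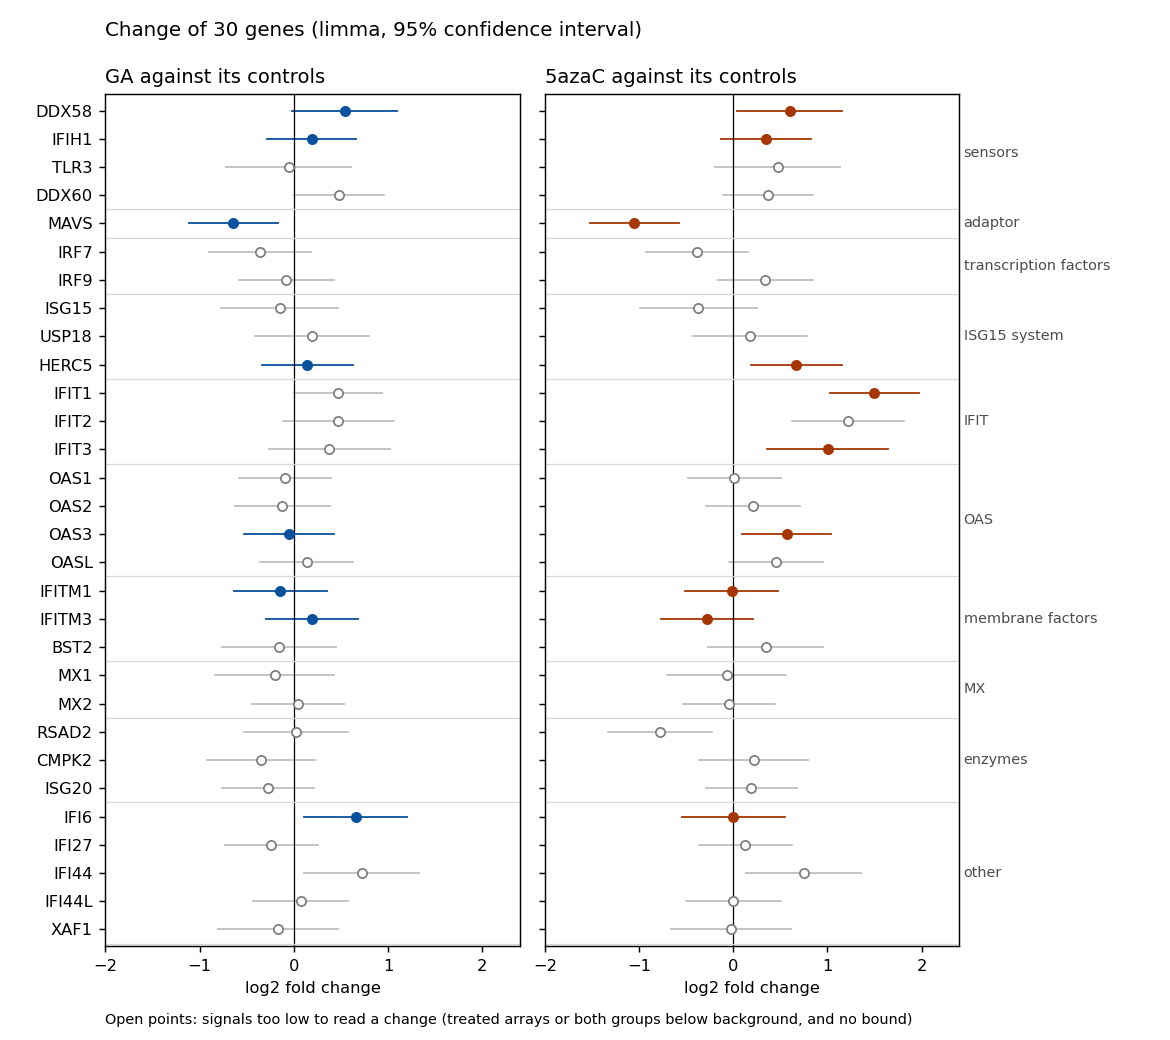
Log2 fold change (horizontal axis) of 30 genes after GA and after 5azaC, each against its own controls, with 95% confidence intervals from limma and genes grouped by role. Filled points have readable signals and open points do not. Among the filled points IFIT1 lies at 1.50 after 5azaC, where its controls are below background, and MAVS at −1.05.

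The 2 treatments were then compared with each other. No member passed the test of the difference between the 5azaC effect and the GA effect, and 0% of all probe sets did in either direction. At an unadjusted p under 0.05 IFIT1 was higher (difference 1.03, 95% CI 0.36 to 1.69, adjusted p = 0.743), against 3.66% of all probe sets, and RSAD2 lower (difference −0.80, adjusted p = 0.744), against 3%. Because no probe set passed, this adjusted test does not decide whether the IFIT1 change after 5azaC differed from that after GA. The effects had the same sign in 17 of 30 members.

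More members were called between the untreated controls of the 2 experiments than after either treatment, and so were more probe sets overall. The controls were compared without the pair block, so these counts come from unlike fits. Without the block 0 members were called after GA (425 probe sets) and 2 after 5azaC (889). Between the controls 4 were called (4134). In the contrast of the controls 3 members were higher in the controls for 5azaC, against 15.2% of all probe sets, and 1 was lower, against 4.07%. The 3 were DDX60 (0.97, adjusted p = 0.00974) and CMPK2 (1.02, adjusted p = 0.0171), both below background, and HERC5. The member that was lower was MAVS. Experiment, culture and array handling cannot be told apart in this contrast, and the levels of the 2 treatments are therefore compared only through their own controls. The counts of 3 and 1 fell when a replicate pair was left out, which leaves 1 array in a group. Calls over all probe sets fell as well.

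The IFIT genes lie side by side on chromosome 10, so their neighbours were read as well, a choice made after the IFIT values had been seen. IFIT5, the last gene of the cluster, read 8.16 and 8.36 in the controls for 5azaC and 7.87 and 7.69 after 5azaC. It read 6.61 and 6.47 in the controls for GA and 6.60 and 6.27 after GA. The log2 fold change of IFIT5 was −0.48 after 5azaC (adjusted p = 0.267), opposite in sign to the differences of IFIT1 and IFIT3. IFIT2 was below background in both groups and gives no fold. IFIT1B, the relative between IFIT3 and IFIT1, was below background. Outside the cluster, FAS, a death receptor, differed by 0.99 after 5azaC (adjusted p = 0.0933). KIF20B, a mitotic kinesin, was higher by 1.17 after 5azaC (adjusted p = 0.0471) and differed by 1.06 after GA (adjusted p = 0.0879). The KIF20B call was lost with the 4 arrays of the 5azaC experiment alone (adjusted p = 0.104). In the single pairs its 5azaC difference was 1.32 and 1.03. With the 4 arrays of the GA experiment alone the GA difference of KIF20B passed (adjusted p = 0.0337).

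**Figure D4:**
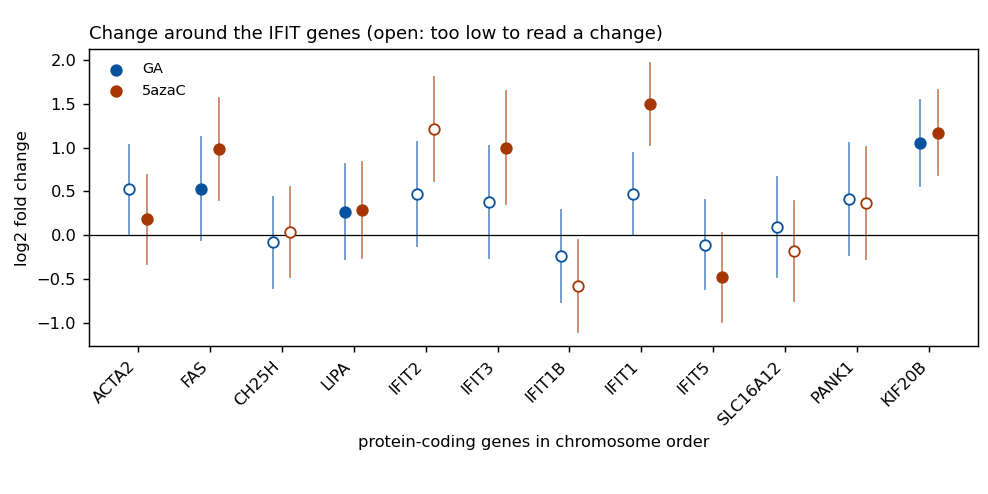
Log2 fold change (vertical axis) after each treatment for the genes around the IFIT cluster, in their order along chromosome 10, with 95% confidence intervals. After 5azaC IFIT3 lies at 1.0, IFIT5 at −0.48 and KIF20B at 1.17. IFIT1 lies at 1.50, with its controls below background. Open points mark signals too low to read a change, among them IFIT2 at 1.21 after 5azaC, where both groups are below background.

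Members were also read by the promoter core described above, as a description. The 15 members with the core had a median log2 fold change of 0.34 after 5azaC and 0.14 after GA, with 5azaC values from −0.37 to 1.50. The 9 measured members whose window lacked it had medians of 0.01 and −0.09. Of the 15, 7 lay below background on all arrays, and of the 9, 5 did. The difference between the 2 sets was not tested, and cores with another spacing were not searched. Each gene was read from a single promoter entry, and other transcript starts were not searched.

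The other steps of the route were read from further lists. Over all probe sets, 37.2% were above background on all arrays, calls in the higher direction made up 0.0793% (GA) and 0.518% (5azaC), and calls in the lower direction 0.242% and 0.988%. No interferon was detected: 8 of 9 listed genes had a probe set, all below background on all arrays, at 2.02 to 4.97. Of the 9 receptor chains and kinases 7 were above background on all arrays, and none was called. IFNAR2, the high-affinity chain of the type I receptor, had the lowest p in both comparisons (1.08 after GA, adjusted p = 0.0959, and 1.07 after 5azaC, adjusted p = 0.0672). Next came IFNGR1, a chain of the interferon gamma receptor, after GA (−0.72, adjusted p = 0.251) and the kinase JAK1 after 5azaC (0.90, adjusted p = 0.0844). The controls for 5azaC minus the controls for GA gave 0.89 for IFNAR2 (adjusted p = 0.0209) and 0.81 for IFNGR1 (adjusted p = 0.0552). For JAK1 this difference was 0.14 (adjusted p = 0.646). Of 10 transcription factors and kinases measured 3 were above background on all arrays and none was called. Among them STAT3 differed by 1.07 after 5azaC (adjusted p = 0.0724), and RELA, a subunit of NF-κB, by −0.97 (adjusted p = 0.0651). RELA differed more between the untreated controls, by 2.43 (controls for 5azaC minus controls for GA, adjusted p = 0.00247).

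Among 15 further sensors and their regulators, 6 were above background on all arrays. SAMHD1, which hydrolyses deoxynucleotides and restricts retroviruses, was the 1 called. SAMHD1 read 9.84 and 10.03 in the controls for 5azaC and 11.23 and 11.08 after 5azaC, a log2 fold change of 1.22 ± 0.22 (adjusted p = 0.0457). It read 9.36 and 9.84 in the controls for GA and 10.71 and 10.94 after GA, a difference of 1.23 ± 0.22 (adjusted p = 0.0729). The 2 treatments thus gave SAMHD1 near-equal differences on either side of the threshold. The 5azaC call was lost with the 4 arrays of the 5azaC experiment alone (adjusted p = 0.101). In the single pairs the 5azaC difference was 1.40 and 1.05. With the 4 arrays of the GA experiment alone the GA difference passed (adjusted p = 0.0193). CGAS, the cytosolic DNA sensor, differed by −0.92 after GA (adjusted p = 0.173), and STING1, its adaptor, by −0.65 (adjusted p = 0.296). After 5azaC CGAS differed by −0.43 (adjusted p = 0.426), with pairs at −0.93 and 0.08, and STING1 by −0.51 (adjusted p = 0.337). The controls for 5azaC minus the controls for GA gave 0.80 for CGAS (adjusted p = 0.0681) and −0.57 for STING1 (adjusted p = 0.157).

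Of 36 further interferon-stimulated genes, 16 were above background on all arrays, against 37.2% of all probe sets. After each treatment 2 were called lower, against 0.242% of all probe sets for GA and 0.988% for 5azaC. LAMP3, a lysosomal protein of maturing dendritic cells, fell by 1.99 with GA (adjusted p = 0.0171) and by 1.67 with 5azaC (adjusted p = 0.0203), with arrays at 7.26 and 7.19 after GA against 9.33 and 9.11, and at 7.49 and 7.29 after 5azaC against 9.09 and 9.03. SLFN5, of the Schlafen family, fell by 2.15 with GA (adjusted p = 0.0171) and by 1.39 with 5azaC (adjusted p = 0.0413). SLFN5 read 7.89 and 7.91 after GA against 10.06 and 10.04, and 8.65 and 8.66 after 5azaC against 10.30 and 9.80. In both genes no treated array reached its controls. Their GA calls held with the 4 arrays of the GA experiment alone but were lost with the paired test of the methods (adjusted p = 0.665 for both). Their 5azaC calls were lost with the 4 arrays of the 5azaC experiment alone (adjusted p = 0.0783 for LAMP3 and 0.0929 for SLFN5). SAMD9L, a growth-restraining antiviral factor, was called after 5azaC (1.48, adjusted p = 0.0335), but all its readings, 5.31 to 6.92, were below background and no fold is given. This call was lost with the 4 arrays of the 5azaC experiment alone (adjusted p = 0.0897).

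**Figure D5:**
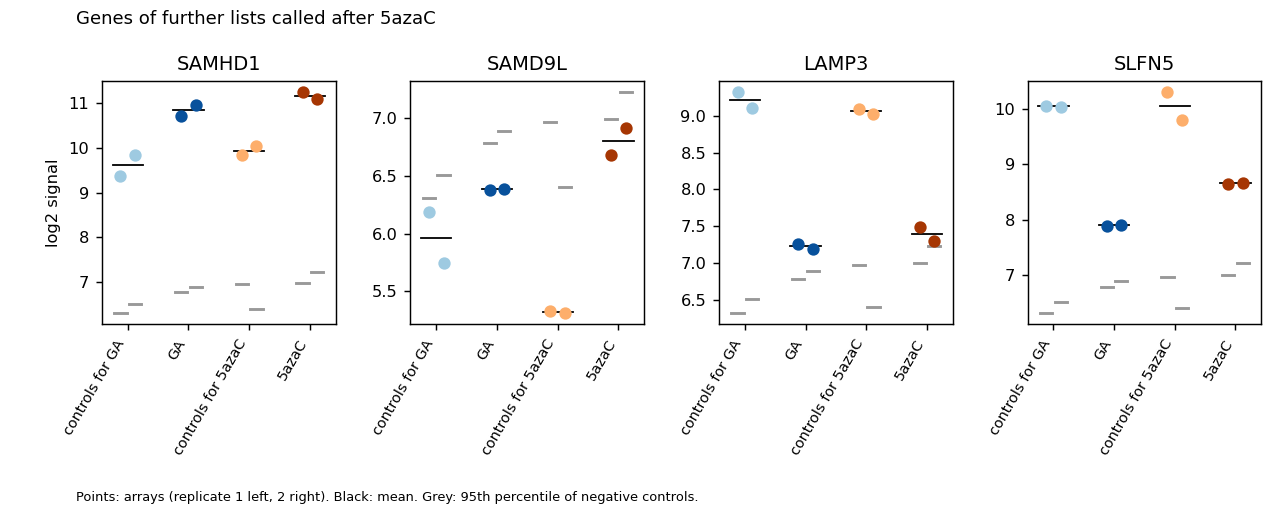
Log2 signal (vertical axis) of SAMHD1, SAMD9L, LAMP3 and SLFN5 on each array by group, with black lines for group means and grey marks for the background of each array. Against their own controls LAMP3 and SLFN5 are lower in all 4 treated arrays, SAMHD1 is higher, and SAMD9L stays below the grey marks.

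Of 13 antigen presentation genes measured 9 were above background on all arrays and none was called. B2M, the light chain of class I molecules, differed by 0.93 after GA (adjusted p = 0.126) and 0.82 after 5azaC (adjusted p = 0.112). PSMB8, a subunit of the immunoproteasome, differed by 0.70 (adjusted p = 0.274) and 1.21 (adjusted p = 0.0747). Of 9 genes derived from retroviral or retrotransposon proteins 1, PEG10, was above background on all arrays, and none was called. Repeat-derived transcripts themselves were not analysed here.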

How the data were processed

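RNA of H1299 cells was hybridised to 8 Clariom S arrays. The authors deposited log2 signals made with Affymetrix Expression Console 1.4 (SST and RMA normalization). No source used here names a genome build. The array medians differed between the 2 experiments, so changes were read against each treatment's own controls, and RMA compresses the differences of dim probe sets. The table held 24351 entries. Without its 2903 control entries, the test covered 21448 probe sets, 17709 with 1 gene symbol and 3739 with none in the platform table. limma 3.58.1 (R 4.3.3) was fitted to all 8 arrays with the 4 treated and control pairs as a block (2 residual degrees of freedom), since the methods name a paired test. The controls of the 2 experiments were compared without it. The threshold was an adjusted p of 0.05. The script was tested on simulated data.

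The members and lists were chosen with earlier results of these data known. All members were accounted for. Values on all arrays were given for those above background on both arrays of a group, and full statistics for those called, those with an unadjusted p under 0.05 and the 3 largest changes above background. From a further list up to 4 called genes were named, or else up to 2 with the lowest p. Background was set at the 95th percentile of the negative-control signals on an array. The number of arrays limits the precision: the median 95% confidence interval of a member reached 0.505 to either side on the log2 scale. Alternatives changed the block, the arrays, the test, the normalization, the filters, the variance model and the controls. Promoters were RefSeq sequence (GRCh38.p14).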

Additional observations from a re-analysis of the deposited data

Results flagged for a closer look

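OAS3 and IFITM3 had differences of opposite sign in the 2 treatments, in both pairs of each, though neither gene passed the test in either treatment. Some of these differences were very small: after GA the pairs gave −0.003 and −0.10 for OAS3, and 0.04 and 0.35 for IFITM3. The share of all probe sets with such opposite signs was not counted. For OAS3 the 5azaC effect exceeded the GA effect by 0.62 on the log2 scale (limma, adjusted p = 0.755), and for IFITM3 it was −0.47 (adjusted p = 0.794), so the test of the difference did not pass for either. No group had enough arrays for a check of single outlying values.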

How the results depend on the processing

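No member was called after GA, or for the difference between the treatments, under any alternative run. These zeros say little where few probe sets were called at all. After GA the fit reported above called 69 of all probe sets. The paired test of the methods called 9, and a trended and robust variance 1210. For the difference 0 probe sets were called in the fit reported above and in every alternative that kept all arrays, so no member could be. After 5azaC, where 1 was called among 323 of 21448 probe sets, the count was 2 without the replicate block (889 probe sets) and 2 with the replicate number as the block (636). It was 0 with the 4 arrays of the comparison (22) and 0 with the paired test of the methods (3). It was 3 without the third of probe sets with the lowest mean signal (937 of 14298), 4 without probe sets under background (1715 of 10313), 3 with a trended and robust variance (1838) and 3 with all 4 untreated arrays as controls (780), so calls over all probe sets rose as well. Leaving out any 1 pair, which leaves 1 array in a group, lowered the 5azaC count and that of the 4 members called between the controls. It lowered the calls over all probe sets in both comparisons too. For 5azaC, leaving out a GA pair gives the same fit as the 4 arrays of the comparison. Quantile normalization and median centring left the 5azaC count at 1. Same-numbered arrays hardly deviated together (correlation −0.023 for GA and 0.0289 for 5azaC over all probe sets), so the pairing rests on the methods alone. The median change after GA, −0.01, turned to 0.14 without those low probe sets and 0.17 without probe sets under background, settings that remove dim members. That after 5azaC, 0.20, became 0.34 and 0.41. With the 99th percentile of the negative controls 2 members were above background on all arrays, with their maximum 0.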
